A study of Mus musculus with 9 samples.

Results

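Amino acid transporters of the liver were compared between tumours driven by active Notch1 and control liver. The 33 transporter genes were taken by name from the solute carrier families SLC1, SLC3, SLC6, SLC7, SLC16, SLC36, SLC38 and SLC43. All 33 were measured among the 19938 genes tested, each on 1 probe set that the platform annotation gives to 1 gene. Total RNA was hybridised to Affymetrix Mouse Gene 1.0 ST arrays, with 4 control livers and 5 hepatocellular carcinomas (HCC) on 1 array each. Every mouse carried Rosa26-lsl-NICD, an allele from which the intracellular domain of Notch1 is made only after Cre has acted. Control mice were monotransgenic for it and had no Cre. The tumours came from bitransgenic AFP-Cre/Rosa26-lsl-NICD mice, in which the alpha-fetoprotein promoter, active in fetal hepatoblasts, drives Cre. The presence of Cre and the tumour state therefore differ together between the groups. The mice were a hybrid 129 x C57BL/6 cross aged between 6 and 12 months. The labels do not say which animal gave which array, and p-values therefore describe variation among arrays, part of which may be technical.

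Amino acids cross the plasma membrane through carriers that differ in substrate and driving force. Sodium-coupled carriers such as the SLC38 family accumulate neutral amino acids. Heterodimeric exchangers, made of an SLC3 heavy chain and an SLC7 light chain, then trade them for others, and uniporters of the SLC16 and SLC43 families let them run down their gradient. Hepatocytes near the portal vein take up amino acids for the urea cycle and gluconeogenesis. Those around the central vein take up glutamate and ammonium and release glutamine.

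Values are RMA intensities on the log2 scale, given per array and as mean ± SD with n = 4 controls and n = 5 HCC. A gene was called when limma's adjusted p, corrected over all 19938 genes, was below 0.05. Intensities of different probe sets are not comparable, so no carrier is said to be more abundant than another. The highest mean in a role group served only to choose members whose values are printed for every array. Array medians lay between 91.5 and 101 linear units. Hepatocyte markers were high in both groups, with Alb at 13.47 to 13.66 in controls and 13.02 to 13.56 in HCC. Of 8 measured hepatocyte markers, 8 had a negative change and none was called. Without HCC array 5, Tat and Cps1, enzymes of tyrosine breakdown and of the urea cycle, were called lower (adjusted p = 0.0218 and 0.0342). The summed linear intensity of the 8 was 70197 to 76775 in controls and 51166 to 70270.5 in HCC. In bulk tissue, fewer hepatocytes and less RNA per hepatocyte cannot be told apart. The Notch1 probe set measured 7.11 ± 0.13 and 7.40 ± 0.16 (adjusted p = 0.160). Xist was near 5 on control array 4 and HCC arrays 3 to 5 (4.83 to 5.10) and between 10.68 and 11.76 on the other arrays. The high arrays were thus control arrays 1 to 3 and HCC arrays 1 and 2, so the Xist level was unbalanced between the groups. The main fit had no term for it. Expression on HCC array 5 stood closest to the controls, with a median distance from the control mean over all genes of 0.12, against 0.15 to 0.19 on the other HCC arrays.

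Slc7a7, the light chain y+LAT1, rose in HCC, and no other transporter passed the test. Slc38a2 and Slc38a3, sodium-coupled carriers of neutral amino acids, Slc6a12, the betaine and GABA carrier BGT1, and Slc16a10, the aromatic amino acid uniporter TAT1, had means about 1 log2 unit or more below control without passing. Among the 33 members 1 was called higher (3.03%) and 0 lower, against 0.858% and 0.160% of all genes, 1.02% together. At an unadjusted p below 0.05 the counts were 2 higher and 5 lower, 21.2% of the members, beside 20.4% of all genes (10.5% higher and 9.85% lower). The HCC and control arrays did not overlap for 2 members above (6.06%) and 5 below the controls (15.2%), beside 5.63% and 3.86% of all genes, 9.48% together. The members are a small list, and 1 gene is 3.03% of it. The median log2 change was -0.06 over the members and -0.03 over all genes, and 20 of 33 members had a negative change (60.6%, against 57.5% of all genes). The median and the share with an unadjusted p below 0.05 were thus near those of all genes.

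**Figure D1:**
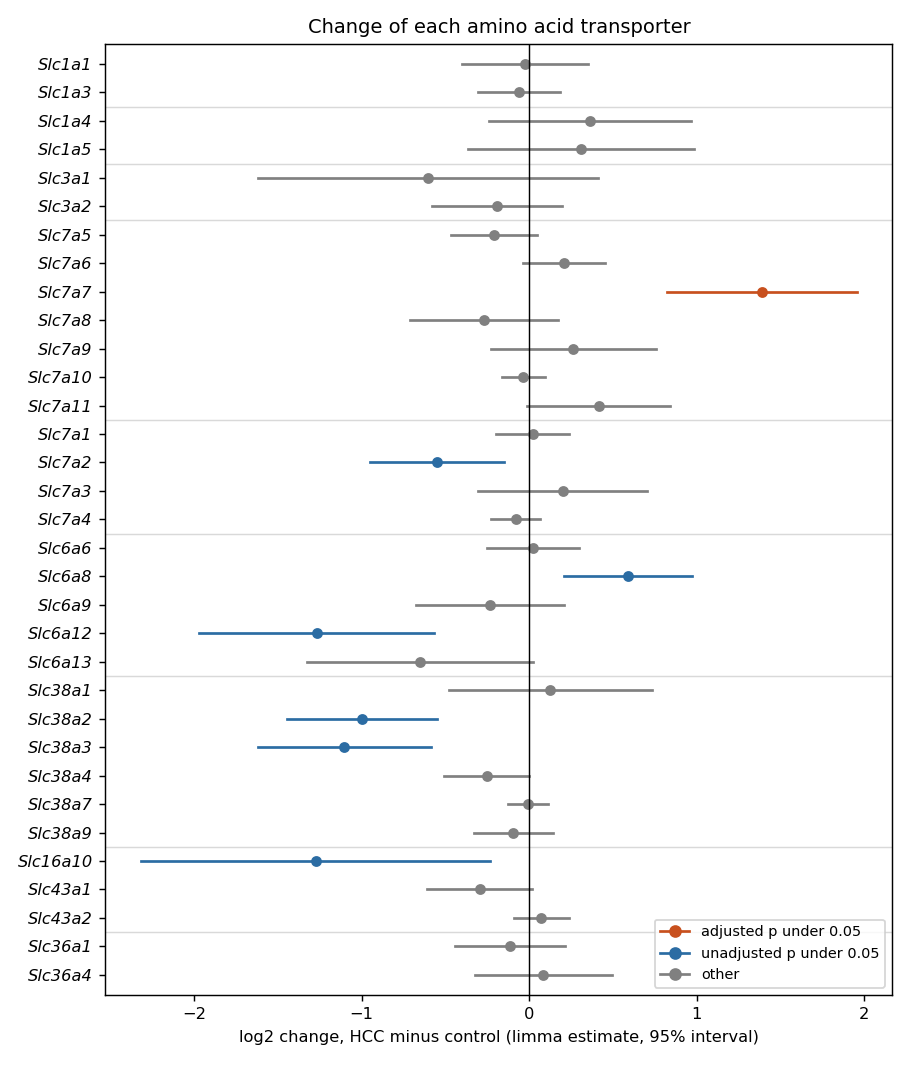
Log2 change of each of the 33 transporters, HCC minus control, as the limma estimate with its 95% interval; grey lines separate role groups. Slc7a7 (orange, 1.39) is the only one with an adjusted p below 0.05, and the other 6 with an unadjusted p below 0.05 (blue) lie between -1.27 and 0.59.

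The heavy chains carry the exchangers to the cell surface. Slc3a2, the 4F2 heavy chain that pairs with LAT1, LAT2, y+LAT1, y+LAT2 and xCT, measured 8.54, 8.87, 8.95 and 8.81 on control arrays 1 to 4 and 9.07, 8.69, 8.48, 8.14 and 8.64 on HCC arrays 1 to 5. The groups overlapped, with a log2 change of -0.19 (95% interval -0.58 to 0.20, adjusted p = 0.554). Slc3a1, the heavy chain rBAT of the cystine carrier, was at 10.17, 11.21, 9.97 and 9.85 in controls and 9.76, 10.69, 8.33, 9.97 and 9.73 in HCC. Its change of -0.61 had a wide interval, from -1.62 to 0.41 (adjusted p = 0.470). HCC array 3 gave the lowest Slc3a1 value, HCC arrays 1 and 5 lay just below the lowest control, and HCC arrays 2 and 4 lay within the control range.

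Among the 7 light chains, Slc7a7 (probe set 10419744, Entrez 20540) stood apart. The protein exports cationic amino acids in exchange for neutral ones and sodium. It measured 6.76, 7.02, 6.73 and 6.52 on the control arrays and 8.43, 8.39, 8.15, 8.51 and 7.23 on HCC arrays 1 to 5. Every tumour lay above every control, and HCC array 5 was the lowest tumour. The mean went from 6.76 ± 0.21 to 8.14 ± 0.53, a 2.62-fold rise (log2 change 1.39, SE 0.25, 95% interval 0.82 to 1.95, limma adjusted p = 0.0460). The call was narrow: it ended after repeated quantile normalisation (adjusted p = 0.0504) and without each of control arrays 1 to 4 (0.138, 0.109, 0.141 and 0.112) or HCC arrays 1 to 4 (0.0756, 0.0766, 0.0896 and 0.0959). The size held in those fits, between 1.29 and 1.48, and without HCC array 5 it was 1.62 (adjusted p = 0.00105).

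Macrophages also express Slc7a7, so their markers are given beside it. Of 7 macrophage markers 3 had a positive and 4 a negative change, and none was called. Their summed linear intensity was 1795 to 4339 in controls and 2048 to 10020.3 in HCC. That sum was 3820, 10020.3, 2655, 3165 and 2048 on HCC arrays 1 to 5, above the control range on array 2 only. Single markers differed from the sum. On HCC array 1, Cd68 (9.35), Cd14 (8.79) and Lyz2 (11.07) were above all controls, whose highest values were 9.14, 7.68 and 10.45, and Lyz2 was also above them on HCC array 4 (10.77). The Kupffer cell marker Clec4f was below all controls on HCC arrays 1, 3, 4 and 5 (7.13, 8.41, 8.02 and 8.75, against 8.91 to 10.10). The part of macrophages in the Slc7a7 values was not tested.

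The other light chains did not pass. Slc7a11, the cystine-glutamate exchanger xCT, measured 4.84, 4.90, 4.58 and 4.44 in controls and 5.24, 5.63, 4.84, 5.14 and 4.68 in HCC (a log2 difference of 0.42, from -0.01 to 0.84 at 95%, with adjusted p = 0.257). HCC arrays 1, 2 and 4 lay above all controls, and arrays 3 and 5 did not. Every Slc7a11 value lay below the array medians over the genes tested, 6.78 to 6.86. Slc7a6, the other y+LAT chain (y+LAT2), was at 0.21 (-0.04 to 0.45). Slc7a5 and Slc7a8, the large neutral amino acid carriers LAT1 and LAT2, were at -0.21 (-0.47 to 0.04) and -0.27 (-0.71 to 0.17), each with overlapping groups. Slc7a9, the light chain that joins rBAT, was at 7.20 on HCC array 3 and at 5.93 to 6.20 on the other 8 arrays. Slc7a10, the Asc-1 chain, gave a single value on 7 of 9 arrays. Of the 33 members 13 had at least 1 value repeated between arrays, as did 47.4% of all genes. For the 4 members with 1 value on 4 or more arrays (Slc7a10, Slc38a7, Slc43a2 and Slc1a5) the probe set resolved few differences.

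Promoter windows were available in the RefSeq tables (build GRCm38.p6) for 24 of the 33 members, in 42 windows, and the 250 bases before the start were searched on both strands. The motifs were TGATGNAA, the core bound by ATF4 with C/EBP partners under amino acid shortage (named CARE here), TGGGAA, the core of the Notch partner RBPJ, and TGGAAA, the core of the tonicity element of NFAT5. Each motif was counted by itself, and CARE with G at its N can share letters with the tonicity core. CARE was found in 2 of 24 members (8.33%) and in 3.91% of all genes in the table, RBPJ in 7 (29.2%, against 24.1%) and the tonicity core in 6 (25.0%, against 20.9%). All 27025 genes had 32851 windows, fewer per gene than the members, and more windows give more chances of a match. Per window the shares were 7.14% against 3.45% for CARE, 23.8% against 21.6% for RBPJ and 19.0% against 18.6% for the tonicity core. Slc7a7 and Slc7a11 were the 2 with CARE, so their windows are shown, with any match to the 3 motifs in capitals. For Slc7a7, which has 5 listed starts, the farthest upstream is shown, at chr14:54417945-54418194 on the minus strand, with its match beginning 141 bases before the start. Another Slc7a7 window held a CARE match beginning 243 bases before its own start. A further Slc7a7 window, chr14:54409473-54409722, held an RBPJ match beginning 210 bases and tonicity cores beginning 204 and 147 bases before its start. For Slc7a11 the window is chr3:50443614-50443863 on the minus strand, with a CARE match on each strand, beginning 66 and 47 bases before the start, and an RBPJ match at 180 bases.
Slc7a7: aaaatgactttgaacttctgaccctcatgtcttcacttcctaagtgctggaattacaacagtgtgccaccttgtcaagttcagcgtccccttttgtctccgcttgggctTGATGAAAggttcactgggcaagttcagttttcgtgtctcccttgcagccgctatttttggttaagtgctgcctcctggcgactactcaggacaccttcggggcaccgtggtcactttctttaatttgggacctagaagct
Slc7a11: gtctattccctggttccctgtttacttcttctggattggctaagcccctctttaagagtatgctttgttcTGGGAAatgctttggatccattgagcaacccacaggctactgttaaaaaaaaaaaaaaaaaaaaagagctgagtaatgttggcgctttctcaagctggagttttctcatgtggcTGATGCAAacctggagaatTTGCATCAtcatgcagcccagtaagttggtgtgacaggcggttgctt
A match describes the letters only and was not tied to the changes of these genes.

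The remaining 4 members of SLC7 are cationic amino acid transporters or their relatives. Slc7a2, CAT2, whose liver form takes up arginine, lysine and ornithine, measured 11.20, 10.67, 10.89 and 10.90 in controls and 10.66, 9.84, 10.53, 10.57 and 10.23 in HCC. The groups did not overlap, although HCC array 1 lay just under control array 2. The log2 change was -0.55 (95% interval -0.95 to -0.15, unadjusted p = 0.0125, limma adjusted p = 0.144). Slc7a1, CAT1, the widely expressed form, was at 0.02 (-0.20 to 0.24). Slc7a3, CAT3, was at 6.86 on HCC array 1 and between 5.67 and 6.01 on the other arrays. Slc7a4, a relative without clear transport activity, was at -0.08 (-0.23 to 0.06).

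The SLC38 family held 2 of the lowest p-values among the members after Slc7a7. Slc38a2, SNAT2, the system A carrier induced by amino acid shortage and by hypertonicity in many cells (probe set 10431894, Entrez 67760), measured 11.29, 11.53, 11.90 and 11.35 in controls. In HCC it measured 11.02, 10.59, 10.28, 10.06 and 10.64. All tumours lay below all controls, with HCC array 4 lowest. The means were 11.51 ± 0.27 and 10.52 ± 0.37, 2.00-fold lower in HCC (log2 change -0.998, SE 0.20, 95% interval -1.45 to -0.55, unadjusted p = 6.83e-04, limma adjusted p = 0.0556). It passed without HCC array 1 (adjusted p = 0.0410) and without HCC array 5 (0.0357). Of 9 fits that each left out 1 array, these 2 called Slc38a2, and its limma adjusted p in the others reached 0.150. Its promoter window, chr15:96699729-96699978 on the minus strand, is shown because it held none of the 3 motifs.
Slc38a2: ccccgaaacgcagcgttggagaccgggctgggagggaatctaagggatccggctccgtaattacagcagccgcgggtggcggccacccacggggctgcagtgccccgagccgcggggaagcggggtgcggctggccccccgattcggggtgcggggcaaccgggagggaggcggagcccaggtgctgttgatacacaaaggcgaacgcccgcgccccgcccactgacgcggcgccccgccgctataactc
That absence concerns these letters in this window.

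Slc38a3, SNAT3, a system N carrier that moves glutamine, histidine and asparagine in either direction across the hepatocyte membrane (probe set 10596718, Entrez 76257), measured 12.04, 12.09, 11.98 and 12.23 in controls and 10.70, 10.78, 11.15, 10.51 and 11.77 in HCC. All tumours lay below all controls, with HCC array 5 nearest to them and array 4 lowest. The means were 12.09 ± 0.10 and 10.98 ± 0.50, 2.15-fold lower in HCC (log2 change -1.10, SE 0.23, 95% interval -1.62 to -0.59, unadjusted p = 9.02e-04, limma adjusted p = 0.0588). Without HCC array 5 it passed, at -1.30 (adjusted p = 0.00348). That was 1 of 9 fits that each left out 1 array, and in the others its limma adjusted p reached 0.156. Leaving out HCC array 5 also raised the share of all genes called from 1.02% to 5.95%.

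The rest of the family differed less. Slc38a4, SNAT4, a system A carrier abundant in liver, was at 13.27, 13.11, 13.06 and 13.19 in controls and 12.92, 12.53, 12.94, 13.05 and 13.05 in HCC, without overlap but with HCC arrays 4 and 5 just under control array 3 (log2 change -0.26, 95% interval -0.51 to 0.0003, adjusted p = 0.246). Slc38a1, SNAT1, was at 7.18 on HCC array 2 and between 5.77 and 6.09 elsewhere. A second Slc38a1 probe set gave a change of 0.27 beside 0.13 (adjusted p = 0.597 and 0.819 over all probe sets). Slc38a9, a lysosomal arginine sensor upstream of mTORC1, was at -0.10 (-0.33 to 0.14), with 0.03 on its second probe set. Slc38a7, a lysosomal glutamine carrier, read 7.39 on 8 of 9 arrays.

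**Figure D2:**
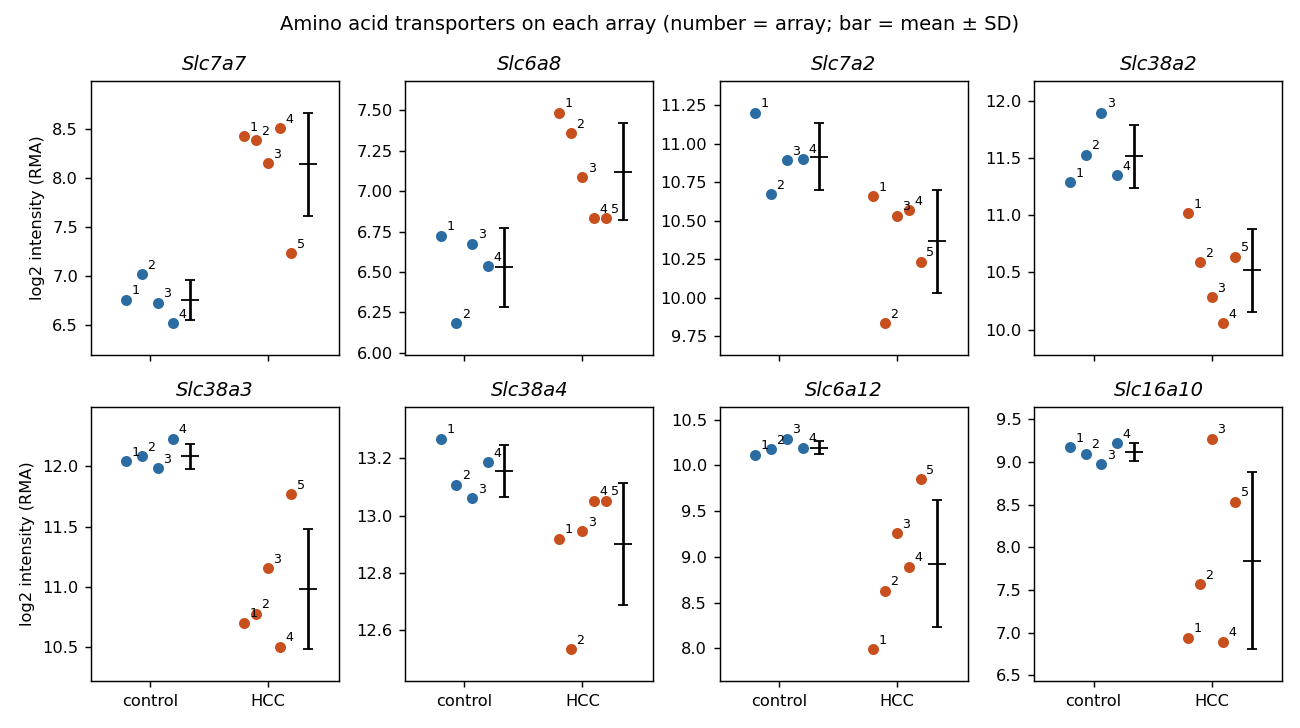
Log2 intensity of 8 transporters on every array, with the array number beside each point and mean ± SD at the right of each group (n = 4 controls, n = 5 HCC); the vertical axes differ. Slc7a7 and Slc6a8 lie above all controls, Slc7a2, Slc38a2, Slc38a3, Slc38a4 and Slc6a12 lie below, and Slc16a10 overlaps through HCC array 3 at 9.27.

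The SLC6 carriers use sodium and chloride gradients. Slc6a12, BGT1 (probe set 10541333, Entrez 14411), measured 10.12, 10.18, 10.29 and 10.19 in controls and 7.99, 8.63, 9.26, 8.89 and 9.85 in HCC. All tumours lay below the narrow range of the controls, from HCC array 1 at the bottom to array 5 at the top. The means were 10.19 ± 0.07 and 8.93 ± 0.69, 2.41-fold lower in HCC (log2 change -1.27, SE 0.31, 95% interval -1.97 to -0.57, unadjusted p = 0.00267, limma adjusted p = 0.0866). It passed without HCC array 5, at -1.50 (adjusted p = 0.0143), and with the Xist level as a covariate, at -1.48 (0.0498). No other fit that left out 1 array called Slc6a12, and its limma adjusted p there reached 0.208. Its farthest upstream window, of 5, at chr6:121342324-121342573 on the plus strand, is shown as that of the carrier best known as a target of NFAT5. It held an RBPJ match beginning 106 bases and a tonicity core beginning 75 bases before the start. No other Slc6a12 window held a tonicity core. The windows chr6:121342653-121342902 and chr6:121343006-121343255 each held an RBPJ match, beginning 125 and 145 bases before their starts.
Slc6a12: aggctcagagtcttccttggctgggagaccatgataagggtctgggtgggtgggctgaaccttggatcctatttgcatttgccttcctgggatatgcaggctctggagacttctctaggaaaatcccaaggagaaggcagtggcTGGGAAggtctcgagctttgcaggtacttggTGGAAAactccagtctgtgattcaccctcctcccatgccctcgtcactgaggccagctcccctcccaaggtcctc
Slc6a13, the GABA and taurine carrier GAT2, is the neighbouring gene in the RefSeq table.

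Slc6a13 measured 10.32, 10.37, 10.20 and 10.39 in controls and 8.80, 10.23, 9.82, 9.17 and 10.33 in HCC. HCC arrays 1, 3 and 4 lay below all controls and arrays 2 and 5 among them (log2 change -0.65, 95% interval -1.33 to 0.02, adjusted p = 0.260). HCC array 1 was the lowest tumour for both neighbours and HCC array 5 the highest. Slc6a6, the taurine carrier and another osmolyte carrier, was at 0.02 (-0.25 to 0.30), with overlap. Slc6a8, the creatine carrier, measured 6.72, 6.18, 6.68 and 6.54 in controls and 7.49, 7.36, 7.09, 6.83 and 6.83 in HCC. All tumours lay above all controls, HCC arrays 4 and 5 by the least (log2 change 0.59, 95% interval 0.21 to 0.97, unadjusted p = 0.00681, limma adjusted p = 0.117). Slc6a9, the glycine carrier GlyT1, was at -0.23 (-0.68 to 0.21), with overlap.

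The uniporters gave the member with the widest spread among tumours. Slc16a10 (probe set 10368720, Entrez 72472) measured 9.17, 9.10, 8.98 and 9.22 in controls and 6.94, 7.56, 9.27, 6.90 and 8.53 in HCC. HCC array 3 was above every control, array 5 was below them, and arrays 1, 2 and 4 were far below. The means were 9.12 ± 0.11 and 7.84 ± 1.04 (log2 change -1.27, SE 0.46, 95% interval -2.32 to -0.23, unadjusted p = 0.0217, limma adjusted p = 0.176). Slc43a1, LAT3, which carries branched-chain amino acids and phenylalanine, was at -0.30 (-0.61 to 0.02), and Slc43a2, LAT4, at 0.07 (-0.09 to 0.24).

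None of the 6 SLC1 and SLC36 carriers passed the test. The glutamate carrier Slc1a1 (EAAC1) was at -0.03 (-0.40 to 0.35). Slc1a3 (GLAST), another glutamate carrier, measured 6.11, 6.19, 5.87 and 5.79 in controls and 5.90, 5.79, 6.02, 6.12 and 5.81 in HCC, with overlap (-0.06, from -0.31 to 0.18). Slc1a4, the neutral exchanger ASCT1, was at 6.17, 6.30, 6.12 and 6.23 in controls and at 7.26, 6.09, 7.12, 6.39 and 5.98 in HCC, so arrays 1 and 3 were high and arrays 2 and 5 below the controls. Slc1a5, the glutamine exchanger ASCT2 that many proliferating cells use, was at 7.46 on HCC array 3 and between 5.81 and 6.03 on the other 8 arrays. HCC array 3 was thus the high tumour for both Slc1a5 and Slc7a9. The proton-coupled carrier Slc36a1 (PAT1) measured 7.22, 7.26, 7.17 and 7.43 in controls and 7.18, 7.33, 7.39, 6.65 and 7.22 in HCC, with only HCC array 4 outside the control range (-0.12, from -0.45 to 0.22). Slc36a4 (PAT4) was at 0.08 (-0.32 to 0.49). Of 7 proliferation markers 7 had a positive change and 2, Top2a and Mcm6, were called higher, with a summed intensity of 512 to 667 in controls and 1448 to 4540.0 in HCC. The HCC and control values of Slc1a5, Slc7a5 and Slc3a2 overlapped, and the part of cell division in the transporter values was not tested.

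Across tumours, 12, 12, 14, 15 and 14 of the 33 members lay below all controls on HCC arrays 1 to 5, which is 36.4%, 36.4%, 42.4%, 45.5% and 42.4%. Over all genes these shares were 31.3%, 35.0%, 27.5%, 31.9% and 25.2%. Above all controls lay 8, 9, 9, 5 and 4 members (24.2%, 27.3%, 27.3%, 15.2% and 12.1%, beside 28.4%, 25.6%, 24.9%, 26.3% and 19.4% of all genes). HCC array 5 had as many low members as array 3 but lay nearer to the controls, with a median distance from the control mean over the members of 0.16 against 0.23 to 0.30. Without HCC array 5, a fit in which 3.16% of all genes were called higher and 2.79% lower (5.95% together), the members called were Slc7a7 higher and Slc38a2, Slc38a3 and Slc6a12 lower, 1 and 3 of 33. The hepatocyte markers Tat and Cps1 were called lower in the same fit, and the part of hepatocyte content in the transporter values was not tested.

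**Figure D3:**
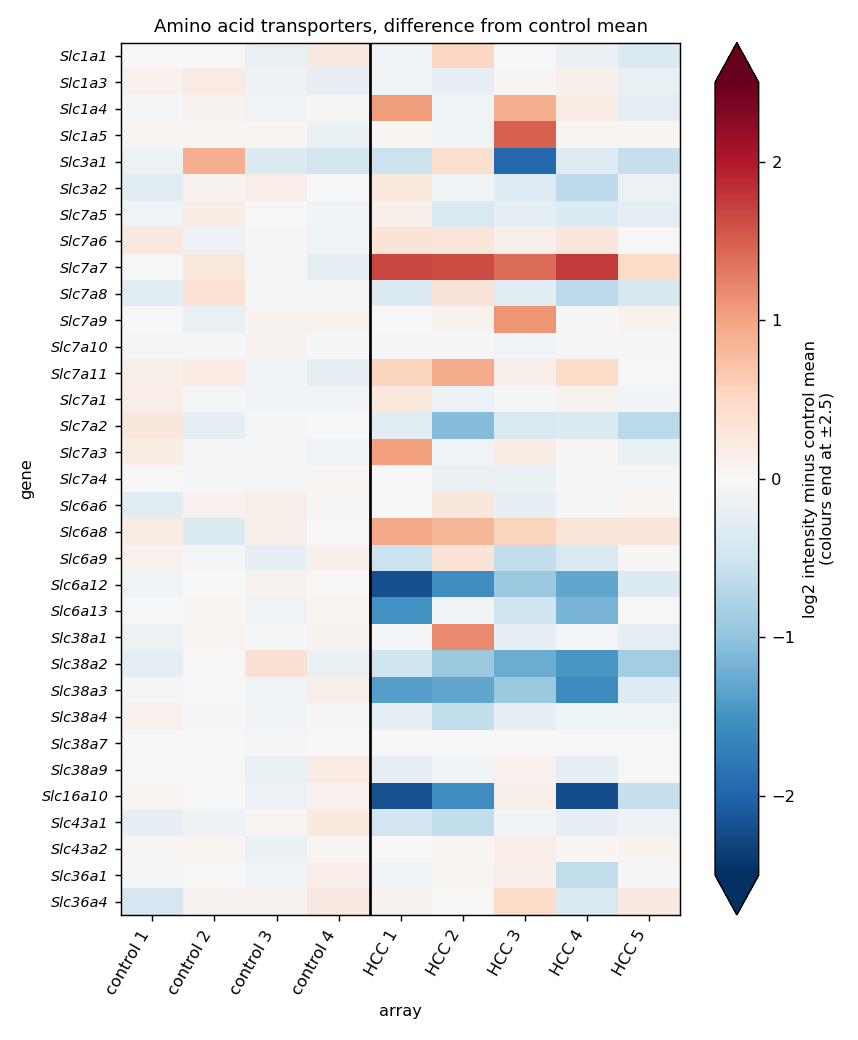
Log2 intensity of each of the 33 transporters on the 9 arrays minus its control mean, ordered by role, with colours ending at ±2.5. Slc7a7 is above the control mean on all 5 HCC arrays, Slc38a2, Slc38a3 and Slc6a12 are below it on all 5, and Slc1a5 and Slc7a9 are high on HCC array 3.

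The amino acid response, in which ATF4 raises transporters and synthesis enzymes during shortage, was followed in 25 genes, of which 24 were measured. No member was called in either direction, and the median was 0.07, against -0.03 over all genes. Of the 24, 14 had a positive and 10 a negative change (41.7%, against 57.5% of all genes). At an unadjusted p below 0.05 there were 1 positive and 3 negative changes. The smallest p-values were of Cth, the cystathionine lyase that makes cysteine (11.67 ± 0.33 and 10.32 ± 0.52, adjusted p = 0.0531), and Herpud1, an endoplasmic reticulum stress gene (11.75 ± 0.14 and 10.71 ± 0.55, adjusted p = 0.0854). Both had negative changes, and both passed without HCC array 5 (adjusted p = 0.0108 and 0.0239), 2 of 24, beside 2.79% of all genes called lower in that fit.

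The list did not move as a unit between groups, but 1 tumour stood out in it. Of the 24 genes 11 had their highest value on HCC array 1 (45.8%, against 16.0% of all genes): Atf4, Asns, Trib3, Ddit3, Psat1, Phgdh, Psph, Mthfd2, Stc2, Nupr1 and Vldlr. The genes described next were chosen after their values were seen. Asns, asparagine synthetase, was 9.23 on HCC array 1, against 6.31 to 6.73 on the other tumours and 5.49 to 7.15 in controls. Psat1, of serine synthesis, was 7.60 there and 6.23 to 6.97 on the other tumours. Among the transporters, Slc1a4, Slc3a2, Slc7a6, Slc7a1, Slc7a3 and Slc6a8 were highest on the same array, 6 of 33 (18.2%).

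**Figure D4:**
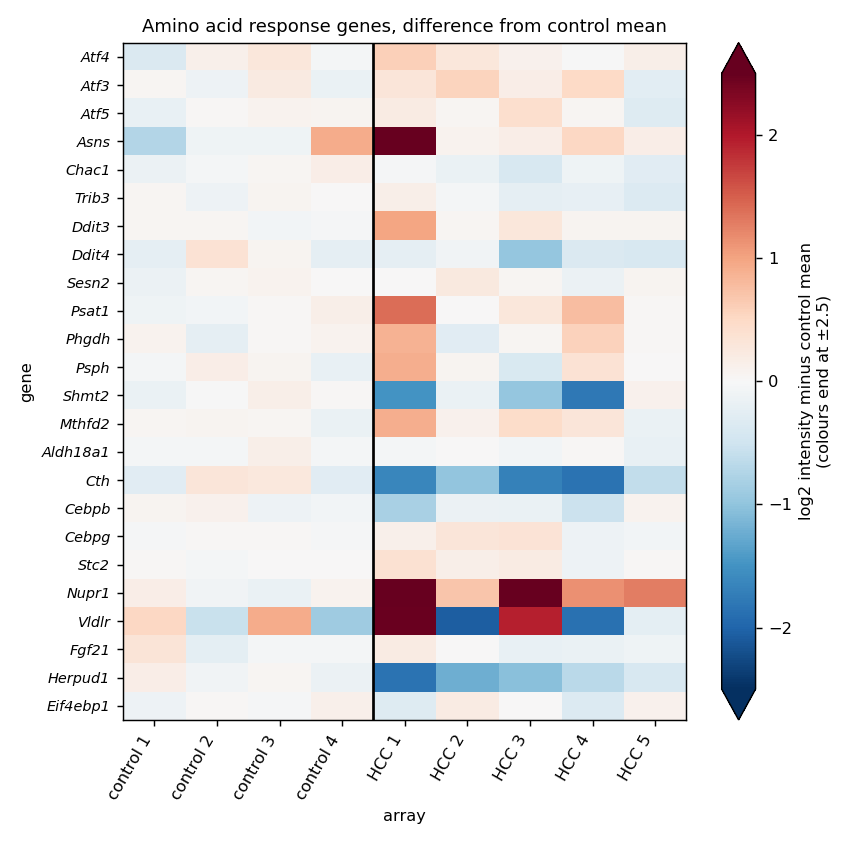
Log2 intensity of the 24 measured amino acid response genes on the 9 arrays minus the control mean, with colours ending at ±2.5. Asns and Psat1 reach 9.23 and 7.60 on HCC array 1, and Cth and Herpud1 are below all controls on all 5 HCC arrays.

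Lysosomal amino acid sensing was followed through 27 genes of mTORC1 and its regulators. None was called, and 8 had a positive and 19 a negative change (70.4%, against 57.5% of all genes). The median was -0.11, against -0.03 over all genes. At an unadjusted p below 0.05 there were 2 positive and 4 negative. The smallest p-values were of the folliculin partners Fnip2 (8.43 ± 0.35 and 7.43 ± 0.41, adjusted p = 0.0758) and Fnip1 (10.03 ± 0.24 and 9.36 ± 0.28, adjusted p = 0.0849), both with negative changes and no overlap. Rragd, a Rag GTPase chosen after its values were seen, was 6.08 to 6.41 in controls and 7.12, 9.96, 8.47, 8.32 and 7.07 in HCC (adjusted p = 0.106). Without HCC array 5, Rragd was called higher and Fnip2 and Rptor lower, 1 and 2 of 27, in the fit that called 3.16% of all genes higher and 2.79% lower.

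Of 13 measured genes of glutamine, glutamate and glutathione use none was called, with 3 positive and 10 negative changes and a median of -0.27, and 3 and 3 had an unadjusted p below 0.05. Gss, glutathione synthetase, measured 9.37 ± 0.17 and 9.95 ± 0.30 (adjusted p = 0.104), and Glud1, glutamate dehydrogenase, 11.94 ± 0.15 and 11.60 ± 0.12 (adjusted p = 0.109). None passed without HCC array 5.

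Of 9 mitochondrial amino acid carriers none was called, and the median was -0.14. A negative change was seen in 8 (88.9%, against 57.5% of all genes). Of these, 4 had an unadjusted p below 0.05, 44.4% of the list, beside 9.85% of all genes. Slc25a13, the aspartate-glutamate carrier citrin that supplies the urea cycle, measured 10.32 ± 0.12 and 9.47 ± 0.42 (log2 change -0.86, adjusted p = 0.0761). Slc25a22, a glutamate carrier, measured 7.15 ± 0.12 and 6.59 ± 0.28 (-0.56, adjusted p = 0.0913). Without HCC array 5 these and Slc25a44, the branched-chain amino acid carrier, were called lower, 3 of 9, beside 2.79% of all genes. Of 33 measured other amino acid and peptide carriers and their partners none was called, 8 had a positive and 25 a negative change, and the median was -0.08, with 3 positive and 4 negative at an unadjusted p below 0.05. The smallest p-values there were of Cltrn, collectrin, a partner of SLC6 carriers (4.48 ± 0.22 and 5.13 ± 0.45, adjusted p = 0.160), and Slc6a18, a neutral amino acid carrier of the kidney (5.81 ± 0.11 and 5.55 ± 0.14, adjusted p = 0.168). Slc1a2, the pericentral glutamate carrier GLT1, chosen after its values were seen, was 6.40, 8.23, 12.14, 7.58 and 10.11 on HCC arrays 1 to 5 and 10.17 to 10.72 in controls. It was highest on HCC array 3 and above 10 on array 5, the arrays where Slc16a10 was also highest among tumours.

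Markers of other cells were read beside these values. All 5 measured biliary markers had a positive change and 1, Sox9, was called, with sums of 605 to 704 in controls and 1066 to 2605 in HCC. None of 7 lymphocyte, 6 endothelial or 7 stellate cell and fibroblast markers was called. Their sums overlapped between groups, with lymphocyte markers at 825 to 1089 and 703 to 1748, endothelial markers at 1748 to 2170.1 and 1413 to 2548, and stellate cell markers at 1134 to 1399 and 1018 to 1264. The red cell marker Alas2 was 10.37 on HCC array 5 and 7.18 to 8.12 on the other arrays. The part of these cells in the transporter values was not tested.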

How the data were processed

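The deposited values are intensities of 35512 probe sets on 9 arrays. The authors summarised them with RMA, per the submitters' processing notes. No source states their scale, and their range, 3.91 to 21468, is linear. Scanner files were not used here. The values were taken to log2 with no pseudocount. The platform annotation gave 1 gene symbol to 21789 probe sets, several to 1621 and none to 12102, and 21698 of the first matched RefSeq. A gene kept its probe set with the highest mean. The main comparison, tumour minus control, was a two-sided limma 3.58.1 fit (lmFit, eBayes) in R 4.3.3, adjusted by Benjamini-Hochberg over 19938 genes. The same fit was also run on simulated arrays with known changes. Their noise was independent and of equal spread in both groups. Genes such as Slc6a12, with an SD of 0.07 in controls and 0.69 in HCC, differ from that, and the simulation does not cover them. The number of arrays limits the precision. Tables, motif searches and figures were made with Python 3.11.15, pandas 2.3.3, numpy 2.4.6 and matplotlib 3.10.9.

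The members and lists were chosen with earlier results of these data known. Every member is named. Values on every array are given for members that passed, had an unadjusted p below 0.05 or did not overlap, and for the member with the highest mean of each role group. Of each pathway list the genes that passed, or else the 2 with the smallest p, are named. As alternatives, genes with a mean under the median were filtered out, arrays were normalised by quantiles again or centred on their medians, and eBayes was run with a trend and robustly. Arrays were also weighted by quality, probe sets of a gene averaged, the replicate number used as a block, the Xist level added as a covariate, and each array omitted once. Deviations of same-numbered arrays of the groups correlated at -0.0040, 0.32, -0.029 and -0.083, and those of unlike-numbered arrays at -0.17 to 0.21. The value of 0.32 was above every unlike-numbered one, and these values do not settle whether the numbers mark pairs. The main fit did not take them as pairs.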

Additional observations from a re-analysis of the deposited data

Results flagged for a closer look

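Within 66 combinations of member and group, 12 had an array that Dixon's criterion sets apart at 95%. Its nominal rate of about 1 in 20 is for values without ties. Where all other arrays of a group share 1 value, a flag is certain. The share flagged over all genes was not computed, so the count is not read as an excess. In HCC, array 3 was high for Slc1a5 (7.46, others 5.88 to 6.03) and Slc7a9 (7.20, others 6.10 to 6.20) and low for Slc7a10 (6.30, others 6.35). HCC array 5 was low for Slc7a7 (7.23, others 8.15 to 8.51). HCC array 2 was high for Slc38a1 (7.18, others 5.77 to 5.97) and low for Slc38a4 (12.53, others 12.92 to 13.05). In controls, array 4 was low for Slc1a5 (5.81, others 6.03) and high for Slc7a4 (6.20, others 6.12 to 6.13). Control array 1 was high for Slc7a1 (7.04, others 6.82 to 6.85). Control array 3 was high for Slc7a10 (6.45, others 6.35) and Slc38a7 (7.42, others 7.39) and low for Slc43a2 (5.90, others 6.12). In Slc7a10, Slc38a7 and Slc43a2 the other arrays of that control group shared 1 value, as did the other HCC arrays in Slc7a10.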

How the results depend on the processing

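Among 17 alternatives, 1 of which (the filter on low genes) left out 14 members, 24 members kept the sign of their change in every fit that held them, among them Slc7a7, Slc38a2, Slc38a3, Slc6a12, Slc16a10, Slc7a2 and Slc6a8. The members left out as low were Slc1a1, Slc1a3, Slc1a4, Slc1a5, Slc7a3, Slc7a4, Slc7a5, Slc7a6, Slc7a8, Slc7a9, Slc7a10, Slc7a11, Slc38a1 and Slc43a2. The count of members called higher went from 1 to 0 after repeated quantile normalisation. The count called lower went from 0 to 2 with the filter on low genes, in which 19 members remained, to 3 with array weights, to 2 with the replicate block and to 1 with the Xist covariate. The replicate block, in which HCC array 5 has no partner and carries nothing on the contrast, called Slc7a7 higher and Slc38a3 and Slc6a12 lower. Leaving out 1 array gave 0 to 1 members higher and 0 to 3 lower, and a member median between -0.096 and -0.037; with the filter that median was -0.23, over fewer members. Over all genes 171 were called higher and 32 lower. These counts were 285 and 93 with the filter, 503 and 246 with array weights and 259 and 220 with the replicate block, and quantile normalisation gave 49 lower. Leaving out 1 array gave 10 to 631 higher and 0 to 556 lower, both highest without HCC array 5.

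Slc38a7 came to 0 without control array 3. The other 8 members, with changes between -0.12 and 0.20, turned sign under at least 1 alternative. When 1 array was left out, Slc1a1 ranged from -0.16 to 0.059, Slc1a3 from -0.13 to 0.0055, Slc7a1 from -0.040 to 0.075, Slc7a3 from -0.0072 to 0.29, Slc6a6 from -0.072 to 0.081, Slc38a1 from -0.13 to 0.22, Slc36a1 from -0.18 to 0.010 and Slc36a4 from -0.056 to 0.20. Slc1a1 was also 0.059 with the block and 0.014 with the covariate, Slc7a1 -0.0015 after quantile normalisation and Slc6a6 -0.093 with array weights. Beyond the smaller number of members or arrays, the cause was not tested. With 4 and 5 arrays and no detection calls, differences well under the spread of the tumours could not be resolved.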
